A study of Mus musculus with 36 samples.

Results

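In the hippocampus of mice, 757 of 20213 consensus peaks of the histone variant H2A.Z had their centre within 1000 bp of an annotated transcription start site and overlapped no region of H3K4me3 in the authors' deposited table. They were assigned to 724 genes, 31 of which held more than 1, so peaks of a gene share its RNA values. The other 11447 of the 12204 promoter peaks overlapped H3K4me3 and served for comparison. The rule reads position and H3K4me3 alone and no H2A.Z level, group difference, other mark or RNA value, but it was proposed with earlier results of these data known.

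C57BL/6J mice aged 15.5 months (old) and 2.5 months (young) were either fear conditioned or left naive. Conditioned mice received 3 shocks of 0.5 mA, each 2 s long, within a session of 5 min, and their brains were frozen 30 min later. RNA and H2A.Z chromatin immunoprecipitation were each sequenced in 3 libraries of young conditioned, young naive, old conditioned and old naive mice. No animal is named for any library, so p-values cover the spread between samples only, which may be technical. The peak table names its groups by letters, and the letter T was read as conditioned because N was read as naive.

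Nucleosomes that carry H2A.Z in place of H2A commonly flank the start sites of genes, where they are exchanged quickly and are placed by remodelling complexes. At most promoters with unmethylated CpG islands, H2A.Z lies together with H3K4me3, a mark of active and poised promoters. H3K27ac marks active promoters and enhancers, H3K4me1 marks enhancers and the flanks of promoters, and H3K27me3 is placed by Polycomb repressive complex 2 at silent developmental genes. In the hippocampus, H2A.Z has been studied as a variant that leaves chromatin after learning.

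Promoter sequences of 7 genes on which the results below turn are shown as examples, and they do not stand for the base composition of all such peaks. Each runs 5' to 3' on the strand of the gene, from 250 bases before to 50 bases after the start, and capitals mark every CG dinucleotide. Msl2 had the highest H2A.Z level among members with a matched sequence (chr9:101074512-101074811, plus strand). Mpp2 had the largest fall after training in young mice (chr11:102088466-102088765, minus strand), and Lcorl the largest in old mice (chr5:45856503-45856802, minus strand). Fosb rose in RNA after training (chr7:19309996-19310295, minus strand), and BC061194 was higher in RNA of old mice (chr2:18698772-18699071, plus strand). Gria2 was among the highest and Papolb among the lowest in RNA of the members with enough counts for a test (chr3:80802786-80803085 and chr5:142530027-142530326, both minus strand). The windows are those of RefSeq on GRCm38.p6, the assembly that mm10 names.
Msl2: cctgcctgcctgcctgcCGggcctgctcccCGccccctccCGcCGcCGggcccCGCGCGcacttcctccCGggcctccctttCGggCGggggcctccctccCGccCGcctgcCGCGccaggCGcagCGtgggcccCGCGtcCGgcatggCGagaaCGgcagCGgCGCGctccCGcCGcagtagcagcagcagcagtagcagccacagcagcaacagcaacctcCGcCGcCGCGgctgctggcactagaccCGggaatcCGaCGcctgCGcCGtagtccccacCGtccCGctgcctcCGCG
Mpp2: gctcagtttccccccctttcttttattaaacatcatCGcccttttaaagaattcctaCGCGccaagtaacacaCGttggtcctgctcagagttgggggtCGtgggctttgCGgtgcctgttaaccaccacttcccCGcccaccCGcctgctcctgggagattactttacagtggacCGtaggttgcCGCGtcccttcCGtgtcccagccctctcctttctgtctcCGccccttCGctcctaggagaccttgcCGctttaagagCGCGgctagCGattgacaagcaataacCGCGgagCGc
Lcorl: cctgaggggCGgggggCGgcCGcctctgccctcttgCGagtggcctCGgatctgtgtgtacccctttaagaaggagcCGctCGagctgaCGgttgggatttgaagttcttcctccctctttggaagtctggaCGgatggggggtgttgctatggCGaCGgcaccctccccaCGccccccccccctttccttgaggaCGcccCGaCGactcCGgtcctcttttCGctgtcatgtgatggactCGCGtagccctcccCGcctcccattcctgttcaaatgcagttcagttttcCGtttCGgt
Fosb: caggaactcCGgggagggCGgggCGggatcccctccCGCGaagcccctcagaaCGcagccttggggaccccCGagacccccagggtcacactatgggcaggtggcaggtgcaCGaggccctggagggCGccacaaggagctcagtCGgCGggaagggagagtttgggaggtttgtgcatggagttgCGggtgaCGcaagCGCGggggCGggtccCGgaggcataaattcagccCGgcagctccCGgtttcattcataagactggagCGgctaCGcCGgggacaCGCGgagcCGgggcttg
BC061194: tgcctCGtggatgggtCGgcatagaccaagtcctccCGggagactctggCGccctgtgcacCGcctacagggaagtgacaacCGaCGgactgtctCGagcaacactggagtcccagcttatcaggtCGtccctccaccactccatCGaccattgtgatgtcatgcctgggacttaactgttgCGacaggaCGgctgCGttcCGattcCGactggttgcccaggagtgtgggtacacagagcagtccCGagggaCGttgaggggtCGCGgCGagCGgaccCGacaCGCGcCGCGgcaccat
Gria2: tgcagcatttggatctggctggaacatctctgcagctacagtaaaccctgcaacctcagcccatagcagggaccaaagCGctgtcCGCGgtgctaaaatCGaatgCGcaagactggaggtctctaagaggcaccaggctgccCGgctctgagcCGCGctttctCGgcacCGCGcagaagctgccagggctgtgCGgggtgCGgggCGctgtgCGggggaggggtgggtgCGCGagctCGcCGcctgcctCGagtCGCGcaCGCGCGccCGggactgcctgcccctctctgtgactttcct
Papolb: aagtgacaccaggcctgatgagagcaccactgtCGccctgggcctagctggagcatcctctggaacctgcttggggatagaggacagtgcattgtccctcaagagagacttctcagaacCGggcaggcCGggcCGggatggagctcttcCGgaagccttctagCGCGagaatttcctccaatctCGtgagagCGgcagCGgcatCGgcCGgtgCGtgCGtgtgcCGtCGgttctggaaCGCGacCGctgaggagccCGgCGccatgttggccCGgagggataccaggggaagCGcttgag
Msl2 held 40 CG dinucleotides in its 300 bases, Mpp2 21, Lcorl 22, Fosb 25, BC061194 26, Gria2 26 and Papolb 23. All of these exceed the median of 18 over the matched peaks without H3K4me3. The window of Sin3a, another of the strongest peaks, is not shown and held 14.

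A RefSeq window that starts within 100 bp of the start site in the authors' table was found for 497 of the 757 peaks, and these gave 485 different windows. The median count of CG dinucleotides was 18 per window for peaks without H3K4me3, against 23 for 8423 windows at peaks with H3K4me3 and 7 over all 32851 RefSeq promoters. Windows with fewer than 6 CG dinucleotides made up 9.28% at peaks without H3K4me3, against 1.76% at peaks with it and 43.6% of all promoters. Most matched windows of these peaks were thus rich in CG, though less so than those with H3K4me3. Peaks with no matched window are not covered. Motifs were searched on both strands as plain letters. TATAAA, the letters of a TATA box, was in 9.07% of windows without H3K4me3, against 5.89% with it and 13.6% of all promoters. GGGCGG, the letters of a GC box, was in 63.7%, against 73.2% and 35.7%. CCAAT was in 40.0%, against 37.4% and 37.4%. TGACGTCA, a full cyclic AMP response element, was in 1.24%, against 3.45% and 1.79%, and TGANTCA, the AP-1 site, was in 3.71%, against 3.70% and 7.81%. A match is a description of the letters only.

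Peaks without H3K4me3 were not simply far from the mark. The distance to the listed H3K4me3 region had a median of 1008 bp, and 377 peaks lay within 1000 bp of it, 184 beyond that and up to 10000 bp, 149 beyond that and up to 100000 bp and 47 farther away. The H3K4me3 regions in the table were windows of 1000 bp in 99.9% of peaks, and which tissue or study they come from is not stated in the sources used here. The peak centre was within 250 bp of the start site in 365 peaks, beyond that and up to 500 bp in 176 and farther in 216, and it lay before the start in 259. By the authors' annotation 394 peaks were exonic, 188 in a 5' untranslated region, 110 upstream and 28 intronic. For 240 of the 757 peaks the same gene had another promoter peak that did overlap H3K4me3, and for 517 it had none.

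**Figure D1:**
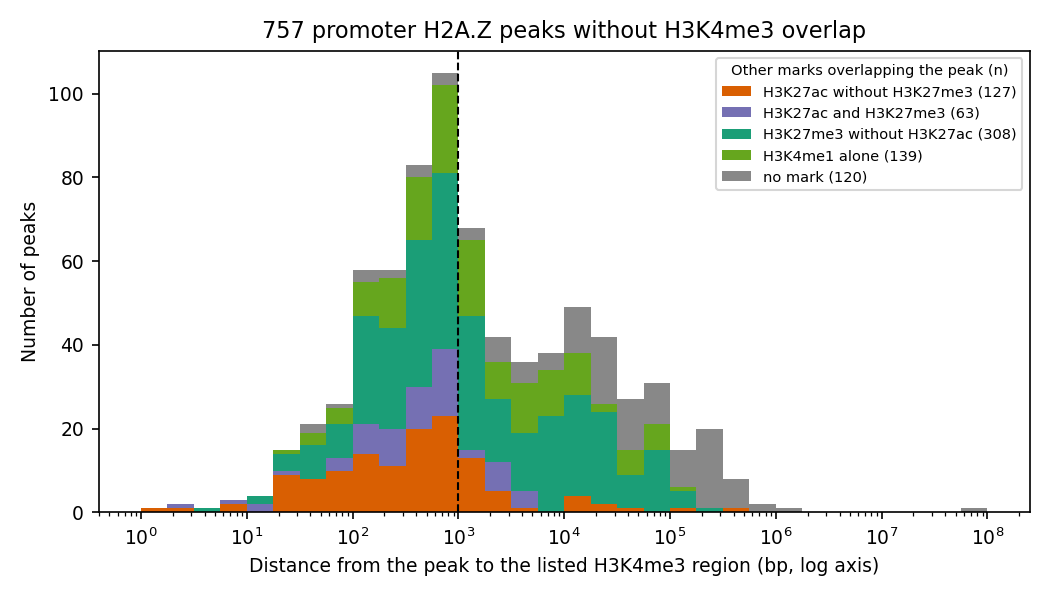
Number of peaks (vertical axis) by distance to the listed H3K4me3 region in bp (log axis), for the 757 promoter peaks without H3K4me3, coloured by the other marks they overlap. The dashed line is at 1000 bp, with 377 peaks to its left. Peaks with H3K27ac lie mostly left of the line and peaks without any mark mostly right of it.

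The other marks split the 757 peaks into unlike kinds. H3K27ac overlapped 190 (25.1%), against 69.5% of promoter peaks with H3K4me3. H3K27me3 overlapped 371 (49.0%), against 33.9%, and H3K4me1 overlapped 578 (76.4%), against 87.4%. The marks give 5 classes: 127 peaks with H3K27ac and no H3K27me3, 63 with both, 308 with H3K27me3 and no H3K27ac, 139 with H3K4me1 alone and 120 with no mark. H3K27ac was more common close to H3K4me3, at 39.5% of the 377 peaks within 1000 bp of it, against 17.4% beyond that and up to 10000 bp and 4.70% from there to 100000 bp. H3K27me3 overlapped 53.1%, 52.7% and 46.3% over these distances. Peaks with H3K27ac lay at a median of 420 bp from H3K4me3 where they had no H3K27me3 and 520 bp where they had it, against 1191 bp for H3K4me1 alone. Windows of fewer than 6 CG dinucleotides were 3.30% of those with H3K27ac and no H3K27me3, 5.29% of those with H3K27me3 and no H3K27ac and 20.2% of those with no mark.

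H2A.Z was weaker and less regularly called at these peaks. The median level, the mean over the 4 groups of the authors' log2 concentrations, was 4.93, against 6.77 at promoter peaks with H3K4me3 and 6.03 over all peaks. The median width was 647 bp, against 1003 bp with H3K4me3. Peaks were called in all 12 libraries in 78 cases (10.3%), against 40.3% with H3K4me3 and 26.9% of all peaks. Within each group the order was the same: the median level was 4.57 against 6.20 in young conditioned, 5.10 against 6.84 in young naive, 4.71 against 6.39 in old conditioned and 5.68 against 7.64 in old naive mice. The class with H3K27ac and no H3K27me3 stood highest at a median of 5.83, then both marks at 5.49, H3K4me1 alone at 4.96, H3K27me3 without H3K27ac at 4.86 and no mark at 4.11. The share called in all 12 libraries was 24.4% in the first of these, 22.2% with both marks, 13.3% with no mark, 5.76% with H3K4me1 alone and 2.92% with H3K27me3 and no H3K27ac.

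**Figure D2:**
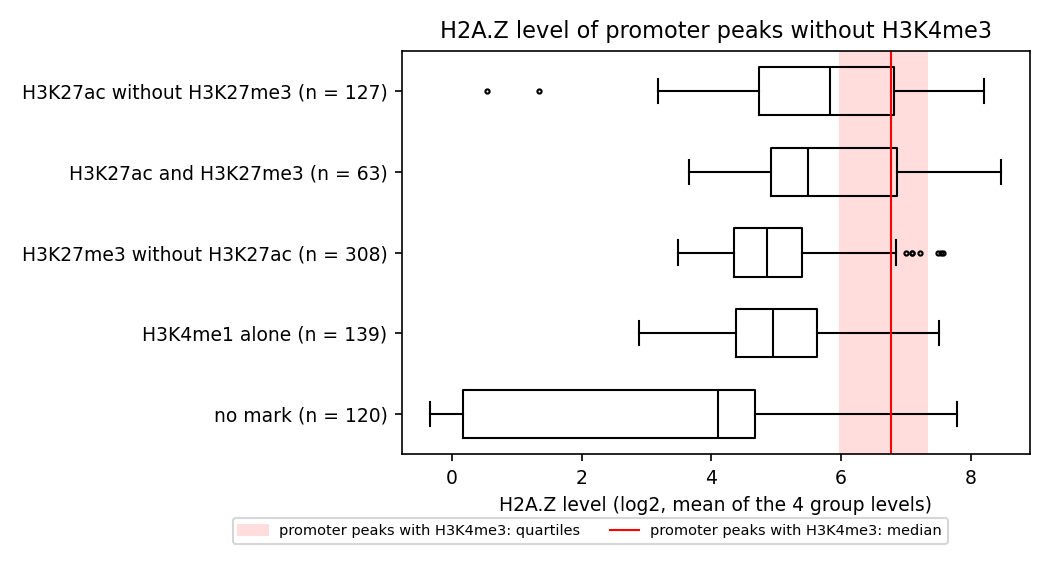
H2A.Z level (log2, mean of the authors' 4 group levels, horizontal axis) of the 757 peaks by class of other marks. Boxes span the quartiles with the median as a line, whiskers reach the last value within 1.5 box lengths, and points lie beyond. The red line and band are the median and quartiles of promoter peaks with H3K4me3. All class medians lie left of the red line, from 5.83 with H3K27ac and no H3K27me3 down to 4.11 with no mark.

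The 10 highest levels ran from 7.79 to 8.47. Arid2, a subunit of the PBAF remodelling complex, had the highest level (8.47) at a peak of 2548 bp, chr15:96286235-96288782. The centre of the peak was 13 bp before the start, and the peak itself lay 785 bp from H3K4me3. Its level was 8.08 in young conditioned, 8.06 in young naive, 8.34 in old conditioned and 9.40 in old naive mice. Msl2, a ubiquitin ligase of a histone acetyltransferase complex, followed at 8.20. Smad7, an inhibitor of TGF-beta signalling, had 8.01, Kdm2a, a demethylase that binds CpG islands, 7.98 and Sin3a, a scaffold of histone deacetylase complexes, 7.93. Usp1, a deubiquitinase, had 7.91, Cdh2, which encodes N-cadherin, 7.90, Ring1, a ubiquitin ligase of Polycomb repressive complex 1, 7.88, the repressor Zbtb7a 7.87 and the zinc finger gene Zfp131 7.79. All but Zfp131 overlapped H3K27ac, and Zfp131 overlapped no mark.

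Homeobox genes of the Hox clusters, which set position along the body axis, were a clear case of the class with H3K27me3. Of 41 Hox genes in the count table, 10 had such a peak, and all 10 peaks overlapped H3K27me3 and none H3K27ac. Their levels ran from 3.77 at Hoxa3 to 5.57 at Hoxa10, and 8 of 10 lay more than 10000 bp from H3K4me3. All 10 genes had 0 counts in all 12 RNA libraries, as did 31 of the 41. A count of 0 over the 12 libraries together allows up to 0.0216 CPM (3 counts), a limit that covers counting error only. After training 0 of the 10 Hox peaks passed the authors' FDR at either age, where 13.2% of all peaks were lower in young and 10.6% in old mice. An unadjusted p under 0.05 was given for 0 of the 10 in the authors' deposited table, against 26.9% of all peaks in young and 30.1% in old mice. Lower calls were fewer among weak peaks without H3K4me3. In young mice 6.34% of those with an old naive level of 4 to 5 were lower by the authors' FDR. In old mice 0 of 257 with a young naive level of 4 to 5 were. The part of level in the Hox counts was not tested.

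Most potassium channel genes with such a peak had the same mark, and most were expressed. Of 97 Kcn genes, 12 had a peak without H3K4me3, and 9 of these overlapped H3K27me3. RNA of all 12 genes, not only those with H3K27me3, had a median of 112 CPM, and 2 were under 1 CPM. It ran from 0.0611 CPM at Kcnk7 to 680 CPM at Kcnab2, a beta subunit. The peak of Kcnab2 had H3K4me1 alone and no H3K27me3, and the gene had another promoter peak with H3K4me3. Kcna1, a voltage-gated channel gene, had an H2A.Z level of 5.13 and 393 CPM. After training 0 of the 12 peaks passed the authors' FDR at either age, with the shares of all peaks as given for Hox. Their median H2A.Z level was 4.83, and the part of level in this count was not tested. An unadjusted p under 0.05 was given for 4 of 12 in young mice, where 26.9% of all peaks had one, and for 0 of 12 in old mice, where 30.1% had, in the authors' deposited table.

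Replication-dependent histone genes of the Hist1 cluster contributed 8 of 54. None overlapped H3K27me3, 3 had H3K4me1 alone, 1 had H3K27ac and 4 had no mark. Hist1h1e, a linker histone, and Hist1h4a were lower after training in young mice, with differences of -1.32 (FDR 0.0311) and -2.27 (FDR 3.63e-05) in the authors' deposited table. These genes are near-identical copies whose reads can be split in counting, so single values are uncertain. Among other families, 20 of 374 Slc transporter genes had a peak without H3K4me3, 15 of these with H3K27me3, and 17 of 362 Zfp genes did, 7 with no mark. At 5 of the 17 Zfp peaks in young mice, where 13.2% of all peaks were lower, and 1 of 17 in old mice, where 10.6% were, H2A.Z was lower after training by the authors' deposited table. Of 1122 Olfr, 338 Vmn, 43 Defb and 63 Serpin genes 0 had a peak without H3K4me3, while 3 of 52 Krt, 1 of 104 Cyp, 1 of 83 Il and 1 of 96 Cd genes did.

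Members made up 3.01% of all genes with RNA counts deposited. Of 16 neuron genes 3 had a peak without H3K4me3: Gria2, an AMPA receptor subunit, Grin2a, an NMDA receptor subunit, and Stmn2, a tubulin-binding protein. Their levels were 4.40 at Gria2, 3.81 at Grin2a and 3.83 at Stmn2. Stmn2 was lower after training in young mice, with a difference of -2.53 (FDR 0.0228) in the authors' deposited table. Of 10 interneuron genes 2 did, Lhx6 and the GABA transporter gene Slc32a1, both with H3K27me3, with levels of 4.73 and 5.56. H2A.Z and RNA were measured in bulk hippocampus, so fewer cells of a type and less signal or RNA per cell cannot be told apart. None of the listed genes of astrocytes (10), oligodendrocytes (12), microglia (14), endothelium (12), choroid plexus and ependyma (12) or other tissues (24) had a peak without H3K4me3. Neuron genes summed to 14907 to 17762 CPM per RNA library, and other-tissue genes to 9.32 to 14.2 CPM.

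RNA libraries held 9410843 to 13350561 counts. The genes of these peaks had a median of 9.07 to 10.7 CPM across the 12 libraries, against 27.6 to 28.3 CPM for 10922 genes with H3K4me3 promoter peaks only and 0 for 12414 genes without a promoter peak. Of the 724 genes, 498 (68.8%) had a mean of at least 1 CPM, against 92.7% of genes with H3K4me3 promoter peaks, and 63 had 0 counts in all 12 libraries. The level of these genes was thus lower in every library. Another promoter peak with H3K4me3 separated the genes: the 229 genes that had one ran from 44.4 to 50.4 CPM, and the 495 without ran from 2.76 to 3.47 CPM. RNA was counted per gene, so transcripts from different start sites of a gene cannot be told apart.

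RNA levels differed widely between the classes of marks. Genes with H3K27ac and no H3K27me3 had a median of 43.4 to 49.0 CPM across libraries, and those with both marks 37.1 to 46.0 CPM. Both lay above the 27.6 to 28.3 CPM of genes with H3K4me3, but those genes were not split by H3K27ac or H3K27me3. Genes with another promoter peak with H3K4me3, such as Kdm2a and Usp1, were also among those with H3K27ac. Whether H3K27ac promoters with and without H3K4me3 differ in RNA was therefore not tested. Genes with H3K4me1 alone had 8.83 to 11.2 CPM, those with H3K27me3 and no H3K27ac 2.64 to 3.53 CPM and those with no mark 0.106 to 0.382 CPM. In each class the 4 groups lay close together, for example 2.91 ± 0.311 CPM in young conditioned, 3.09 ± 0.306 in young naive, 3.08 ± 0.391 in old conditioned and 2.88 ± 0.172 in old naive mice for H3K27me3 without H3K27ac (mean ± SD of library medians, n = 3 each).

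**Figure D3:**
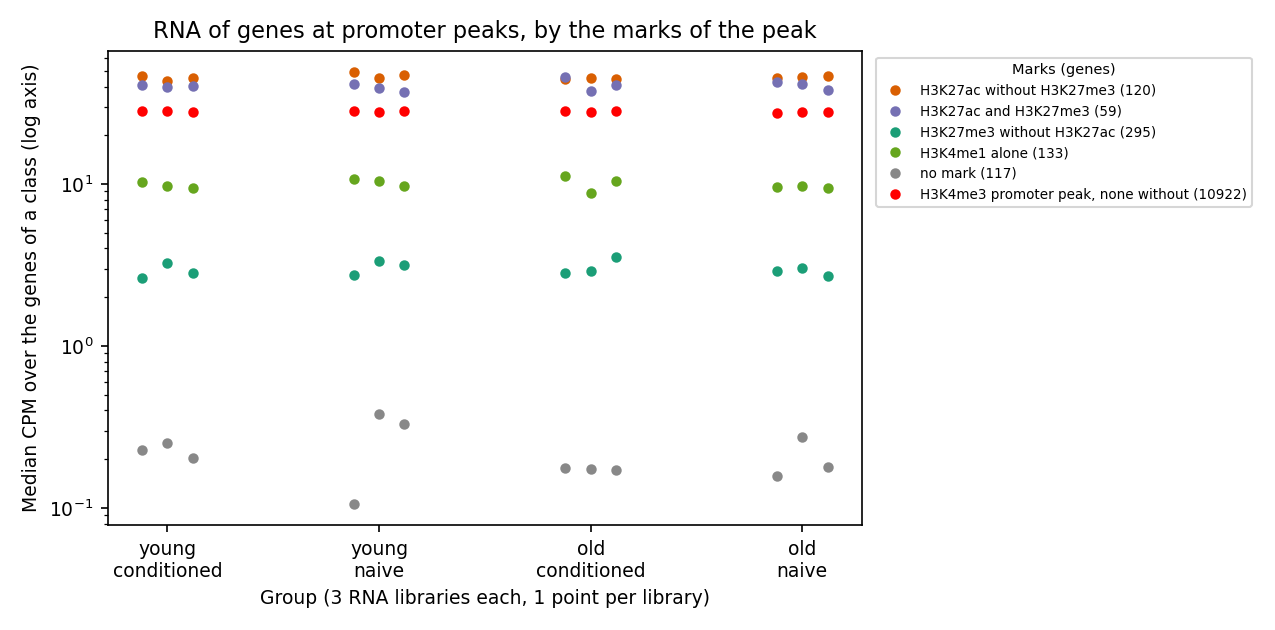
Median CPM (log axis) over the genes of each class, 1 point per RNA library, for the 4 groups of 3 libraries. Red points are genes with H3K4me3 promoter peaks and no peak without it, whatever their other marks. Classes with H3K27ac lie above the red points in every library, and the other 3 classes lie below, down to 0.106 to 0.382 CPM with no mark.

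Ppp3ca and Gria2 had the highest RNA levels among the members. Ppp3ca, the catalytic subunit of the phosphatase calcineurin, averaged 1273 ± 71.7 CPM in young conditioned, 1157 ± 48.8 in young naive, 1286 ± 65.8 in old conditioned and 1345 ± 101 in old naive mice (SD, n = 3 each). Its peak, 757 bp inside the gene, had H3K4me1 alone and a level of 4.99, and the gene had another promoter peak with H3K4me3. Gria2 averaged 1292 ± 44.6 CPM in young conditioned, 1182 ± 174 in young naive, 1120 ± 67.0 in old conditioned and 1221 ± 87.5 in old naive mice (SD, n = 3 each). It had no other promoter peak with H3K4me3, and its own peak, with H3K27ac, lay 845 bp from H3K4me3. Neither gene passed in any comparison by edgeR. Libraries did not overlap in 3 comparisons of groups, which was common among the 518 tested members. Ppp3ca was higher (edgeR adjusted p = 0.746) in young conditioned than in young naive libraries, where 66 members did not overlap. It was also higher (0.303) in old naive than in young naive libraries, where 67 members did not. Gria2 was lower (0.335) in old conditioned than in young conditioned libraries, where 125 members did not. Separation of 3 from 3 libraries was thus not particular to Ppp3ca and Gria2. The shares of all tested genes that did not overlap are not given here, so these counts are not a result about the members. Among the next were the kinase gene Ptk2b, Prrc2b, the transcription factor Tcf4, Abr, Kcnab2, Bai2 and the ephrin receptor Epha4. The lowest among tested genes were Papolb, a poly(A) polymerase known from testis, Tbx1, Dnd1, Traf1 and Tmem54, each under 1 CPM in the mean of each group.

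Training lowered H2A.Z at a part of these peaks in young mice. By the authors' deposited table, H2A.Z at 88 of 757 peaks (11.6%) was lower in conditioned than in naive young mice at FDR under 0.05, where 13.2% of all 20213 peaks were. A single peak was higher, where 0.109% of all were. The median difference, conditioned minus naive on the log2 scale, was -0.53 for these peaks, -0.63 for promoter peaks with H3K4me3 and -0.57 for all peaks in the authors' deposited table. The share that was lower is close to that of all peaks. An unadjusted p under 0.05 was given for 22.7% of these peaks and 26.9% of all peaks.

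The called peaks came from every class, but at unlike shares. The classes also differed in H2A.Z level, and its part in these shares was not tested. Shares of all peaks by class are not given here. Lower calls made up 24.4% of peaks with H3K27ac and no H3K27me3 (31 of 127), 16.5% with H3K4me1 alone (23), 10% with no mark (12), 6.35% with both marks (4) and 5.84% with H3K27me3 and no H3K27ac (18). The 88 differences ran from -1.19 to -6.47 with a median of -2.34 in the authors' deposited table. In 51 of the 88 the peak was called in 0 of 3 young conditioned libraries, and in 6 it sat at the lowest level that the table holds for that group. Differences of such peaks depend on that lowest level and are given as deposited, with no reading as a fold.

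Mpp2, a membrane-associated scaffold gene, had the largest fall at chr11:102088035-102088897, with a difference of -6.47 (FDR 3.85e-10) in the authors' deposited table. Its level was -0.38 in young conditioned mice, where 0 of 3 libraries called it, and 6.08 in young naive mice, where 3 of 3 did. Sik1, a salt-inducible kinase induced by neuronal activity, followed with -5.62 (FDR 0.000607), then Ubald1 with -5.61 (FDR 9.86e-06), Stt3a, a subunit of oligosaccharyltransferase, with -5.54 (FDR 3.25e-06) and Trim46, a microtubule organiser of the axon, with -5.29 (FDR 0.000927), all by the authors' deposited table. The 5 peaks were called in 0 of 3 young conditioned libraries. All 5 were called in 1 or 2 of 3 old conditioned libraries, and none passed the authors' FDR in old mice. The peak that was higher belonged to Msh4, known from meiotic recombination, with 4.88 in young conditioned and 2.42 in young naive mice, a difference of 2.47 (FDR 0.0177) in the authors' deposited table.

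In old mice fewer of these peaks passed. By the authors' deposited table, H2A.Z at 16 of 757 (2.11%) was lower in conditioned than in naive old mice, where 10.6% of all peaks and 16.8% of promoter peaks with H3K4me3 were. None was higher by the authors' test at FDR under 0.05, where 0.0396% of all peaks were. An unadjusted p under 0.05 in either direction was given for 98 peaks (12.9%), against 30.1% of all. The direction was nevertheless common, since 640 of 757 differences (84.5%) were below 0 in the authors' deposited table, with a median of -0.75, against 99.2% and -1.03 for promoter peaks with H3K4me3. At both ages 535 peaks had differences below 0. Whether training differed between ages at a peak was not tested, since the table holds no such comparison.

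The share of lower calls differed between levels of H2A.Z. Among peaks with a young naive level of 7 or more, 9 of 48 without H3K4me3 (18.8%) were lower in old conditioned mice, against 34.3% of 4813 with H3K4me3. At 6 to 7 the share was 3.01% without H3K4me3, against 5.35% with it, and at 5 to 6 it was 1.36%, against 1.80%. For young mice, split by the level in old naive mice, the share lower without H3K4me3 was 12.1% at 7 or more, against 9.91% with H3K4me3. It was 21.3% against 29.2% at 6 to 7, 11.3% against 24.0% at 5 to 6 and 6.34% against 19.3% at 4 to 5. The share thus was highest at the highest level in old mice and at 6 to 7 in young mice. The part of level in the counts was not tested beyond this split.

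The 16 peaks of old mice were mostly strong ones, with a median level of 7.29, against 4.86 for the 88 of young mice. Lcorl, a nuclear corepressor-like gene, had the largest fall with -3.79 (FDR 0.0261) in the authors' deposited table, at a peak called in 0 of 3 old conditioned and 2 of 3 old naive libraries. Prr16 followed with -3.07 (FDR 0.0481), Pcdh10, a protocadherin, with -2.80 (FDR 0.0482), Tbp, the TATA-binding protein gene, with -1.67 (FDR 0.0345) and Kctd9 with -1.56 (FDR 0.03), all by the authors' deposited table. Sin3a fell by 1.51 (FDR 0.00382) and Arid2 by 0.84 (FDR 0.0417) on the log2 scale of the authors' deposited table. Usp1, Kdm2a and Zfp131 of the strongest peaks were also among the 16. At both ages 3 peaks were called, those of Lcorl, Sin3a and Tbp, which is 3.37% of the 89 young calls and 18.8% of the 16 old calls. The comparisons at the 2 ages use different libraries.

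**Figure D4:**
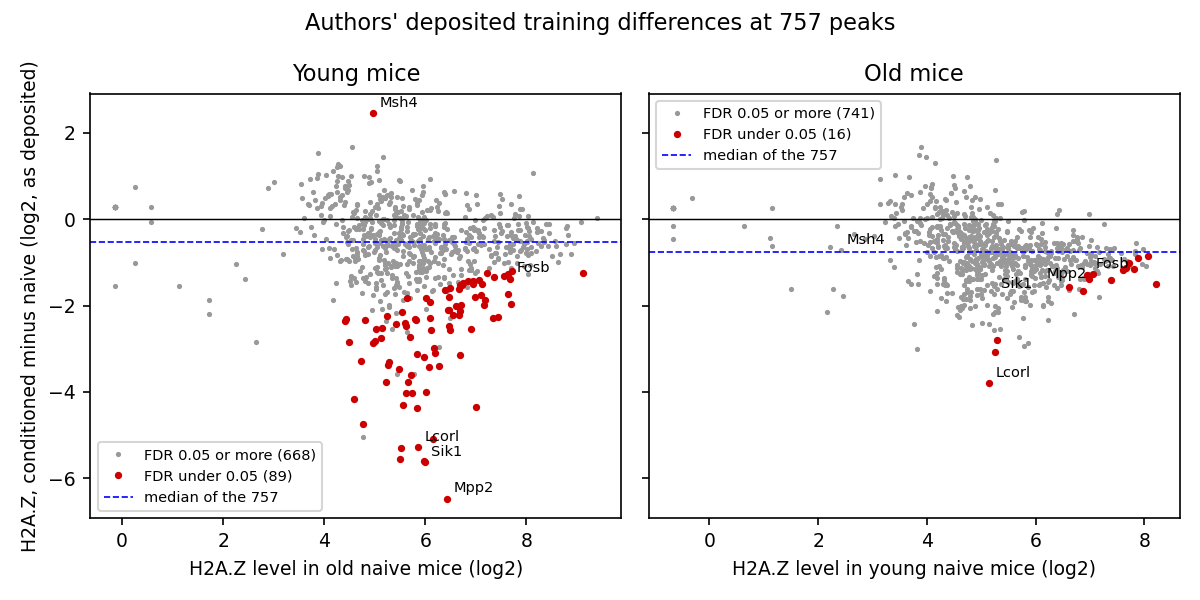
Conditioned minus naive difference of H2A.Z (log2, as in the authors' deposited table, vertical axis) of the 757 peaks in young mice (left) and old mice (right), by the naive level at the other age (log2). Red points passed FDR 0.05, 89 in young and 16 in old mice. Most points lie below 0 at both ages, the dashed medians are at -0.53 and -0.75, and red points of old mice lie mainly at high levels.

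Age alone moved none of these peaks past the authors' threshold. In naive mice 0 of 757 peaks differed between old and young mice at FDR under 0.05 in the authors' deposited table, where 0% of all peaks did, and 47 (6.21%) had an unadjusted p under 0.05, against 12.1% of all. In conditioned mice the count was also 0 by the authors' test, where 0% of all peaks did, with 7 (0.925%) against 0.554% at an unadjusted p under 0.05. Medians of old minus young differences were 0.25 in naive and 0.16 in conditioned mice in the authors' deposited table, and their size depends on the scaling of the old groups.

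RNA changed after training at few of these genes. Of the 518 genes with enough counts for a test, 2 rose and 0 fell in young mice by edgeR at an adjusted p under 0.05, where 0.0278% of all 14405 tested genes rose and 0% fell. At an unadjusted p under 0.05 there were 39 (7.53%), against 6.63% of all genes. The medians of log2 fold changes were -0.02 for these genes and -0.01 for all. In old mice 1 rose and 0 fell by edgeR, where 0.0139% of all rose, and over both ages 2 rose and 0 fell, where 0.0764% of all rose. Unadjusted p under 0.05 were 45 (8.69%) in old mice, against 7.16% of all, and 42 (8.11%) over both ages, against 6.99%. The genes were Fosb and Sik1, both on a list of 30 early activity-regulated genes. The members had been proposed with such results known, so this is a description.

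Fosb, a subunit of the transcription factor AP-1 that neuronal activity induces, had 18.5, 12.7 and 15.9 CPM in young conditioned libraries, against 7.63, 6.95 and 6.20 CPM in young naive ones. It had 16.6, 17.6 and 15.8 CPM in old conditioned libraries, against 8.99, 7.24 and 7.62 CPM in old naive ones. The lowest conditioned library, at 12.7 CPM, exceeded the highest naive one, at 8.99 CPM. The log2 fold change was 1.19 ± 0.147 (SE) in young mice, with an edgeR adjusted p of 0.00492, and 1.06 ± 0.143 in old mice, with an edgeR adjusted p of 0.0115. The young call was lost without young conditioned library 73 (edgeR adjusted p = 0.0522) or young naive library 83 (0.0733). The old call was lost without any 1 of the 6 old libraries (edgeR adjusted p of 0.0536 to 0.134), and over both ages it held without any 1 library. Its only promoter peak, chr7:19309379-19310695, lay over the start and 389 bp from H3K4me3, and overlapped H3K27me3. Its H2A.Z level was 5.61 in young conditioned and 6.98 in young naive mice, a difference of -1.38 (FDR 0.0218) in the authors' deposited table. In old mice the level was 6.19 in conditioned and 7.68 in naive mice, a difference of -1.28 (FDR 0.297) in the same authors' deposited table. H2A.Z was thus lower where RNA was higher in young mice, and in old mice the difference of near size did not pass.

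Sik1 had 25.1, 20.1 and 24.2 CPM in young conditioned libraries, against 12.6, 13.7 and 12.8 CPM in young naive ones. In old mice it had 24.9, 18.1 and 20.0 CPM in conditioned libraries, against 12.7, 13.1 and 10.7 CPM in naive ones. The groups did not overlap at either age, as at 66 of the 518 tested members in young and 61 in old mice. The shares of all tested genes that did not overlap are not given here, so these counts are not a result about the members. The log2 fold change was 0.82 ± 0.131 in young mice with an edgeR adjusted p of 0.0414, and 0.79 ± 0.133 in old mice with an edgeR adjusted p of 0.105. The young call was lost without 8 of the 12 libraries, namely young conditioned 73 or 77, young naive 79, 81 or 83, old conditioned 65 and old naive 67 or 69 (edgeR adjusted p of 0.0519 to 0.462), and over both ages it held without any 1 library. With upper-quartile factors the young call was lost (edgeR adjusted p = 0.0532), and in old mice Sik1 passed by DESeq2 (adjusted p = 0.00115) and by edgeR with no filter (0.00812). Sik1 had 2 promoter peaks, and at both the difference after training was below 0 at both ages in the authors' deposited table. The one without H3K4me3, chr17:31856170-31856869, was centred 728 bp before the start. It had a level of -0.38 in young conditioned mice, the lowest that the table holds for that group, and 5.24 in young naive mice. In old mice its level was 4.03 in conditioned and 5.99 in naive mice, a difference of -1.74 (FDR 0.240) in the authors' deposited table. The one with H3K4me3, chr17:31854688-31855842, had differences of -0.87 (FDR 0.279) in young and -1.28 (FDR 0.0200) in old mice in the authors' deposited table. The difference between the 2 peaks was not tested.

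Egr2, a zinc finger transcription factor induced by activity, had 8.29, 3.83 and 6.58 CPM in young conditioned libraries, against 3.07, 0.229 and 0.579 CPM in young naive ones. It had 6.54, 6.82 and 5.34 CPM in old conditioned libraries, against 2.60, 1.65 and 0.359 CPM in old naive ones. The 6 conditioned libraries lay above the 6 naive ones. Its log2 fold change over both ages was 2.20 ± 0.395, and the edgeR adjusted p of 0.0536 missed the threshold. It passed without young naive library 79, with a log2 fold change of 2.96 (edgeR adjusted p = 0.00054), without old naive library 67 (0.0446) or without young conditioned library 75 (0.0343). With no filter on low counts it passed over both ages (edgeR adjusted p = 0.000499) and in young mice (0.0491), and by DESeq2 it did not over both ages (adjusted p = 0.144). Its peak without H3K4me3, chr10:67538357-67539249, was 935 bp inside the gene with H3K27me3, and had differences of -1.31 (FDR 0.161) in young and -0.74 (FDR 0.561) in old mice in the authors' deposited table. Its other promoter peak, chr10:67537190-67538035, overlapped H3K4me3 and was centred at -256 bp from the start. That peak had differences of -1.72 (FDR 0.130) in young and -2.36 (FDR 0.0159) in old mice in the authors' deposited table. Of the 30 genes of the early list, 26 had a promoter peak with H3K4me3, Egr2 and Sik1 among them. In the whole list 4 of 29 tested genes rose in young, 2 in old mice and 11 over both ages, with 0 falls, by edgeR at an adjusted p under 0.05.

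RNA was also compared at the genes of the peaks that fell. Of 87 genes at the 88 lower peaks of young mice, 80 could be tested for RNA. Fosb and Sik1 rose, 0 fell, 7 of 80 had an unadjusted edgeR p under 0.05, where 6.63% of all tested genes had, and the median log2 fold change was 0.03, against -0.01 for all. Of the 16 genes at the lower peaks of old mice 0 changed by edgeR, 1 had an unadjusted p under 0.05, where 7.16% of all tested genes had, and the median was -0.07, against 0.00 for all. Mpp2 had 149 ± 4.39 CPM in young conditioned and 148 ± 11 in young naive mice (SD, n = 3 each) and a log2 fold change of 0.01 ± 0.0687 (SE).

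Between ages, RNA of a single gene passed by edgeR, and this count depended on the method. DESeq2 called 10 members over both conditions, BC061194 among them, and 6 others in conditioned mice, while it gave BC061194 no adjusted p in naive or conditioned mice. By edgeR over both conditions 7 members passed with no filter and 16 without young naive library 81. The shares of all genes called in these other settings are not given here, so the counts are not a result particular to the members. BC061194 was higher in old mice, in naive mice with 2.92, 3.58 and 3.94 CPM in old libraries, against 1.38, 0.993 and 1.08 CPM in young ones. In conditioned mice it had 4.24, 4.89 and 4.05 CPM in old libraries, against 0.980, 1.33 and 1.92 CPM in young ones. All 6 old libraries lay above all 6 young ones. The log2 fold change was 1.61 ± 0.267 in naive (edgeR adjusted p = 0.0446), 1.66 ± 0.251 in conditioned (0.0223) and 1.63 ± 0.183 over both conditions (0.000582). Of all tested genes 0.0347% were higher and 0.0208% lower in old naive mice, 0.0347% higher in old conditioned mice, and 0.146% higher and 0.229% lower over both. At an unadjusted edgeR p under 0.05 there were 53 members (10.2%) in naive mice, against 10.3% of all genes, 84 (16.2%) in conditioned mice, against 13.4%, and 104 (20.1%) over both, against 16.6%. The call over both conditions held without any 1 library, the highest edgeR adjusted p being 0.00361. The call in naive mice was lost without any 1 library other than young conditioned 73 or 77 (edgeR adjusted p up to 0.194). The call in conditioned mice was lost without old conditioned 61, 63 or 65, young conditioned 73 or 75 or young naive 83 (up to 0.204). Its peak, chr2:18698564-18699326, overlapped H3K27me3, lay 3720 bp from H3K4me3 and had an old minus young difference of 0.20 (FDR 0.996) in naive and -0.11 (FDR 1.00) in conditioned mice in the authors' deposited table.

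**Figure D5:**
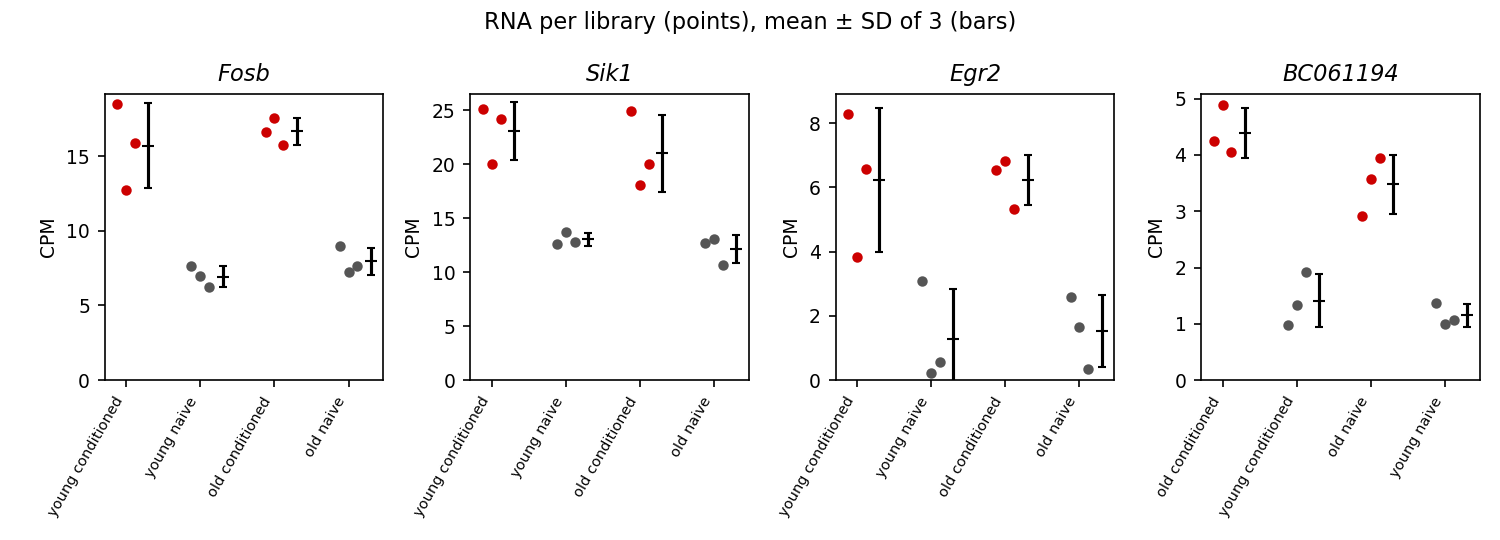
RNA in CPM of Fosb, Sik1, Egr2 and BC061194, 1 point per library, with the mean ± SD of 3 libraries beside each group. Red marks the conditioned groups in the first 3 panels and the old groups in the last, and the SD bar of Egr2 in young naive mice runs below 0, where the axis ends. In each panel every red point lies above every grey one, for Fosb at 12.7 to 18.5 CPM in young conditioned and 6.20 to 7.63 CPM in young naive mice.

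Differences between the ages in the response to training passed at 0 of 518 genes by edgeR, where 0% of all tested genes did. An unadjusted p under 0.05 was found at 44 (8.49%), against 7.2% of all, and the smallest adjusted p was 0.680. DESeq2 called 0 as well. Choroid plexus genes, none of them a member, summed to 71.8 to 2284 CPM in young conditioned, 215 to 3232 CPM in young naive, 83.8 to 174 CPM in old conditioned and 187 to 1910 CPM in old naive libraries. Their part in the RNA comparisons of these genes was not tested.

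At the edge of the distance rule, the last peaks inside were those of Epha4 at -997 bp and 4933422H20Rik at 998 bp from the start, with levels of 5.85 and 3.62. The first outside were those of Esrrb at 1003 bp, Ccnd2 at -1004 bp and Lipg at -1007 bp, with levels of 5.21, 5.52 and 4.06.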

How the data were processed

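RNA was given as whole-number read counts per gene symbol that the authors deposited for each of 12 libraries, with no normalization. H2A.Z was given as a single deposited table on mm10, with levels per group and folds between groups in log2 units by the authors. Its p-value and FDR columns are also the authors', and it holds the number of libraries that called a peak (0 to 3) and distances to start sites and to 4 kinds of histone mark regions. Per the submitters' processing notes, R 3.1.0, edgeR 3.8.6, DiffBind 1.12.2, MACS2 2.0.10, HTSeq 0.6.1p2, TopHat, Bowtie2 2.2.1, cutadapt, Trim Galore 0.4 and FastQC were used, with builds mm9 and mm10. Their roles, the strand setting of counting and the origin of the mark regions are not stated there.

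Deposited folds run naive minus conditioned and young minus old and were turned round. Level differences exceed the folds by a constant of 0.215 for training in old mice (naive minus conditioned) and of -0.334 and -0.118 for age in naive and conditioned mice (young minus old), so levels were compared across peaks within a group. Distances to start sites run to the centre of a peak. Distances to mark regions are the shortest distances listed for the peak and do not run from its centre. Without values per library, H2A.Z was not tested again. The 12 input libraries were not used here.

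Counts were fitted in edgeR 4.0.16 (R 4.3.3) with TMM factors, the filterByExpr filter and 1 quasi-likelihood model of the 4 groups, with Benjamini-Hochberg adjustment over all 14405 tested genes at 0.05. CPM uses the normalized library sizes, and log2 CPM has a prior count of 2. The fit was tested on simulated data. RNA was joined to peaks by gene symbol. Other settings were DESeq2 1.42.0, upper-quartile factors, no filter, each library left out, an FDR of 0.01, and other limits for the start site and for H3K4me3.

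Genes were named by rule: the 10 highest levels, the 5 largest changes each way per H2A.Z comparison, every RNA call, the 10 highest and 5 lowest in RNA, the strongest 3 of each mark class, listed genes and the 3 peaks on each side of the distance limit. Some genes that the rule names are not reported here. The peaks, the lists and the rule were chosen with earlier results of these data known.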

Additional observations from a re-analysis of the deposited data

How the results depend on the processing

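Defining the peaks by no H3K4me3 region within 1000 bp left 380 of the 757, and within 5000 bp left 240. With the first limit H3K27ac fell to 10.8%, H3K27me3 to 45.0% and H3K4me1 to 66.3%. Lower H2A.Z calls after training were 27 of the 380 (7.11%) in young and 5 (1.32%) in old mice. Among the 757 they were 88 and 16. With peaks within 500 bp of the start there were 54 lower calls among 541 peaks (9.98%) in young mice. H3K4me1 was then at 72.3% and the median H2A.Z level was 4.92, against 4.93. The median RNA level was 3.05 in place of 3.36 log2 CPM. Peaks called in at least 2 libraries of some group had a median level of 4.95. Without the peaks of low mappability or at the lowest level of the table in all 4 groups, an alternative chosen after seeing the data that itself filters on H2A.Z level, H3K4me1 was at 80.7%, the H2A.Z level at 4.98 and the RNA level at 3.53. Genes with no other H3K4me3 promoter peak had an RNA level of 1.68. At FDR 0.01, H2A.Z calls after training among the 757 were 45 lower and 0 higher in young and 1 lower in old mice. The shares of all peaks at FDR 0.01 are not given here. The RNA count after training in young mice was 1 with upper-quartile factors. In old mice it was 2 with DESeq2 and 2 with no filter. Between ages it was 0 by DESeq2 in naive mice, where BC061194 had no adjusted p, 6 by DESeq2 in conditioned mice (Git1, Hapln4, Psd, Scrt1, Shank3 and Ube2ql1), and 10 by DESeq2 and 7 with no filter over both conditions, against 1 each. Leaving out each library in turn gave 0 to 3 calls after training in young mice, 0 to 2 in old mice and 2 to 4 over both ages. For age it gave 0 to 1 in naive mice, 0 to 1 in conditioned mice and 1 to 16 over both, with 16 without young naive library 81, and 0 for the interaction. The shares of all genes called in these settings are not given here, so these RNA counts are not particular to the members. RNA levels here are means of the 12 library medians. RNA of Fosb, Sik1, Egr2 and BC061194, the genes followed through these settings, changed direction in none, and causes were not tested. H2A.Z could not be refitted without a library because its table holds group values. No paired analysis was possible because the RNA titles carry a number of their own for each library and the H2A.Z table has no values per library.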

Other observations

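Among the 120 peaks with no mark, 27 lay more than 100000 bp from every region of the 4 marks, out of 645 such peaks in the whole table. They were chosen for description after their values were seen. Of these, 9 were called in all 12 libraries and 8 sat at the lowest level of the table in all 4 groups. Several were strong: Zfp131 had a level of 7.79, Aida 7.73, Mia3 7.52, Nim1k 7.08, Disp1 6.89 and Hmgcs1, an enzyme of cholesterol synthesis, 6.86. Aida and Mia3 lie near each other on chromosome 1, at 205960 bp and 133696 bp from the nearest mark region. Their genes were expressed, with 37.8 CPM for Zfp131, 39.2 CPM for Aida, 151 CPM for Mia3 and 291 CPM for Hmgcs1 in the mean of 12 libraries.

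Of the 757 peaks, 26 sat at the lowest level of the table in all 4 groups, of 219 such peaks in all, although their table entries list them as called, 5 of them in all 12 libraries. Of the 26, 11 overlapped a region that the authors' table marks for low mappability. They included Ifnz and 5 neighbouring predicted genes of chromosome 4 (Gm13272, Gm13275, Gm13276, Gm13277 and Gm13279), the histone gene Hist1h2ao and Erdr1.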
